A study of Arabidopsis thaliana with 18 samples.

Results

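AT3G49960 and AT4G11290 are 2 genes of the class III peroxidase family of Arabidopsis thaliana, measured here in roots. Both were picked with their levels in these samples known, and each is read by 1 probe set (a group of short probes summarised as 1 signal) that is annotated to it and to no other gene, as are 13286 genes in all. Because of that choice, their levels and differences are given as a description and without a test. Tests are given for the other members of the family and for related gene groups.

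Class III peroxidases are haem enzymes of plants that are secreted to the cell wall or held in the vacuole. They use hydrogen peroxide to oxidise phenolic compounds, which cross-links lignin precursors and the extensin proteins of the wall, and they can also produce reactive oxygen that loosens the wall. Their haem group carries iron, and many members of the family are expressed mainly in roots.

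The roots came from 3 genotypes, all in the Col-0 background: the Col-0 wild type, a line with CsUBC13 overexpression (CsUBC13-OE, the cucumber gene) and the mutant ubc13A, labelled ubc13-/-. Seedlings 10 days old were moved to ES medium with FeEDTA (with Fe) or to the same medium with no FeEDTA added (without Fe), and roots were frozen 3 days later. Each of the 6 groups had 3 biological replicates, each on 1 single-colour array. The ubc13A samples are numbered in a run apart from those of Col-0 and CsUBC13-OE, which follow each other. Whether they were grown or measured at another time is not known here. A difference in level between ubc13A and the other genotypes cannot be told apart from a difference between these sets. The labels name neither the promoter of the transgene nor the number of lines behind CsUBC13-OE.

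The 18 arrays correlated with each other at 0.958 to 0.991 on the log2 scale, and no sequencing depth exists for them, so their number limits the precision. UBC13A itself, UBC35 in the annotation, is read only by a probe set shared with UBC36, whose mean signal was 3782 ± 478 in Col-0 and 2879 ± 484 in ubc13A with Fe (SD, n = 3). It stood 0.40 lower in ubc13A on the log2 scale, a difference of -0.40 with Fe (adjusted p = 0.393 by limma) and of -0.40 with no FeEDTA (adjusted p = 0.308), and the shared probe set leaves the genotype label unchecked. By the annotation used here, 3 of 24 root hair markers had a probe set of their own (EXPA7, EXPA18 and XTH26). The same held for 1 of 9 endodermis markers (GSO1) and 0 of 5 further root markers. Of 8 markers of green shoot tissue it held for 4 (RCA, LHCB4.1, PSAE-1 and PRK). That annotation matched 13436 of 22746 probe sets to 1 gene, so a gene counted as unmeasured may still be on the array. EXPA7, an expansin of root hairs, had signals from 328.0 to 865.7 over all arrays. RCA, the activase of Rubisco, had group means from 663 to 1274, so markers of green tissue were also read in these roots.

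AT3G49960 had its high signals in the groups with Fe and its low signals in the groups without Fe, in all 3 genotypes. In Col-0 with Fe the 3 arrays read 1754.3, 1367.3 and 1852.6, and without Fe they read 418.5, 381.8 and 343.9. In CsUBC13-OE they read 1585.5, 1551.6 and 1435.7 with Fe and 426.8, 436.2 and 370.8 without. In ubc13A they read 1424.3, 1484.1 and 726.7 with Fe and 471.1, 441.8 and 368.3 without. The lowest array with Fe, ubc13A replicate 3 at 726.7, still lay above the highest of all arrays without Fe, at 471.1. Within a genotype the groups with and without Fe did not overlap, in the lower direction for AT3G49960, as was the case for 12.9% of all probe sets in Col-0, 11.6% in CsUBC13-OE and 12.8% in ubc13A.

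**Figure D1:**
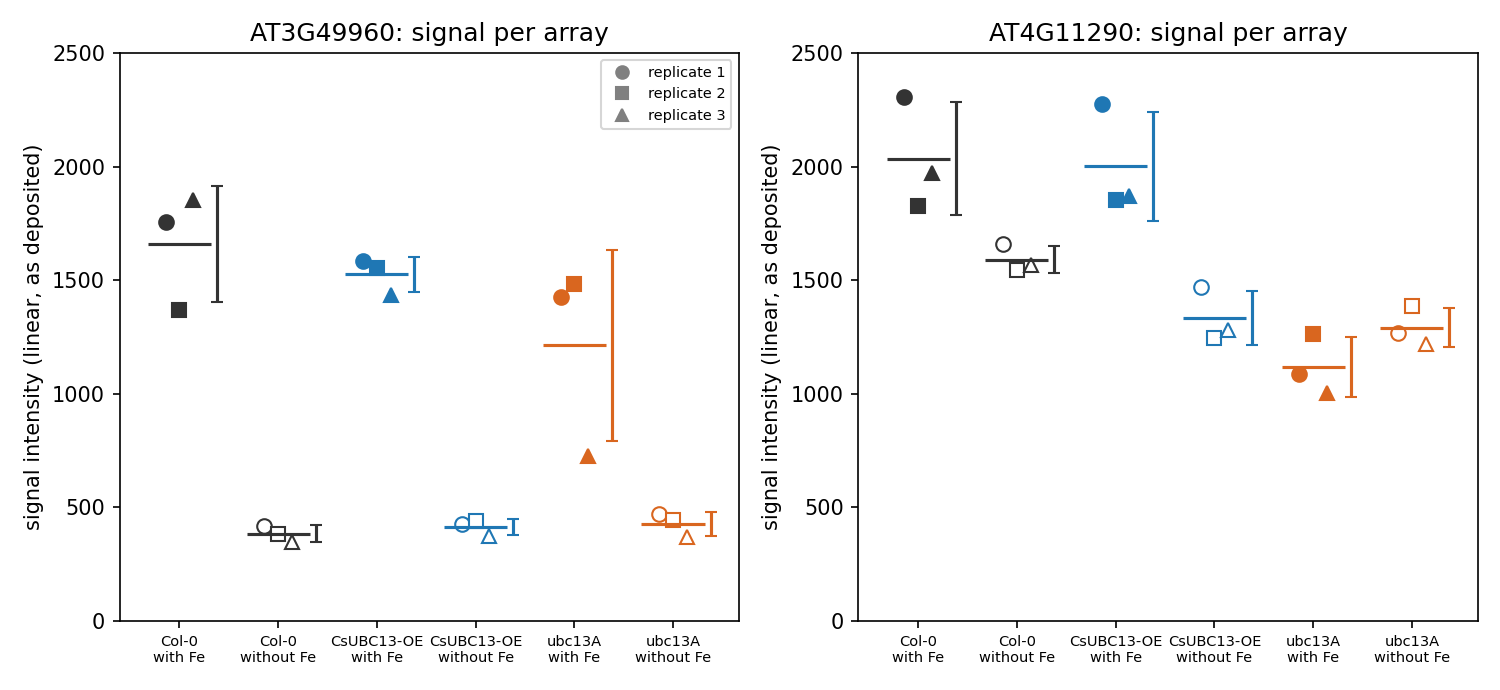
Signal intensity of AT3G49960 (left) and AT4G11290 (right) on each array, on a linear axis, by genotype and iron supply. Filled points are arrays with Fe, open points arrays without Fe, the marker shape gives the replicate number, horizontal lines are group means and the bars beside them are ± 1 SD (n = 3). AT3G49960 is at 726.7 or more on every array with Fe and at 471.1 or less on every array without, and AT4G11290 is at 1003.4 to 1261.9 in ubc13A with Fe.

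The mean signal of AT3G49960 was 1658 ± 257 in Col-0 with Fe and 381.4 ± 37.3 without (SD, n = 3). The fitted log2 difference was -2.07 (SE 0.21), a 4.19-fold lower level on the log2(signal + 16) scale. In CsUBC13-OE the means were 1524 ± 78.6 and 411.3 ± 35.4, a log2 difference of -1.85 (SE 0.21). In ubc13A they were 1212 ± 421 and 427.1 ± 53, a log2 difference of -1.41 (SE 0.21). All signals of AT3G49960 were far above the pseudocount of 16, so the added constant changes these folds little. These comparisons are of bulk roots, in which fewer cells that express a gene and less RNA per cell cannot be told apart.

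Ordered by mean signal, the groups of AT3G49960 ran from Col-0 with Fe through CsUBC13-OE with Fe and ubc13A with Fe to ubc13A, CsUBC13-OE and Col-0 without Fe. Neighbouring groups within a supply overlapped in range: the 3 without Fe lay within 343.9 to 471.1, and their means differed by less than the SD of the ubc13A group. The 1 step in that order with no overlap was the step from arrays with Fe to arrays without.

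The size of the AT3G49960 difference in ubc13A depended in part on 1 array. The log2 Fe response was less negative in ubc13A than in Col-0 by 0.66 (SE 0.30), and by 0.33 (SE 0.20) without ubc13A replicate 3 with Fe. Without that array the log2 Fe response of AT3G49960 in ubc13A was -1.74 (SE 0.15), and its level with Fe differed from that of Col-0 by -0.18 (SE 0.15) against -0.50 (SE 0.21) with it. On the same array the root hair markers EXPA7 (328.0, against 687.6 and 525.8 in the other replicates) and EXPA18 (556.7, against 862.8 and 733.8) were the lowest of their group. The summed signal of the 3 measured root hair markers was 1005.6 there, the lowest of the 18 arrays, against 1820.9 and 1440.8 in the other replicates of the group. The part of this in the AT3G49960 value was not tested. The mean correlation of that array with the rest of its group, 0.978, was like that of the other ubc13A arrays with Fe (0.978 and 0.979).

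Marker sums were set beside these values. In Col-0 the summed signal of the root hair markers was 1550.5 to 2338.8 with Fe and 1417.7 to 1866.3 without, so the groups overlapped. In ubc13A it was 1005.6 to 1820.9 and 1217.7 to 1580.2, which overlap. In CsUBC13-OE it was 1633.8 to 1999.2 and 1452.0 to 1609.4, which do not overlap, with the lower sums without Fe. The summed signal of the 4 green tissue markers was 3290.5 to 4077.6 with Fe and 2435.5 to 2746.1 without in Col-0. It was 3778.4 to 4017.1 and 1911.3 to 2637.3 in CsUBC13-OE, and 2231.9 to 3140.3 and 1857.3 to 2543.8 in ubc13A. The green tissue sums were thus lower without Fe with no overlap in Col-0 and CsUBC13-OE, and overlapped in ubc13A. No root hair or green tissue marker was at 0, and their part in the Fe response of AT3G49960 was not tested.

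AT4G11290 had another pattern: it was high in Col-0 and CsUBC13-OE with Fe, lower in both without Fe, and lowest in ubc13A with Fe. In Col-0 the arrays read 2307.7, 1825.1 and 1971.8 with Fe and 1660.3, 1545.8 and 1564.9 without. In CsUBC13-OE they read 2277.2, 1853.3 and 1869.6 with Fe and 1468.7, 1246.3 and 1280.4 without. In ubc13A they read 1084.5, 1261.9 and 1003.4 with Fe and 1267.3, 1386.8 and 1216.8 without. In Col-0 and in CsUBC13-OE the groups with and without Fe did not overlap, while in ubc13A they did, with the higher mean without Fe. In that lower direction 12.9% of all probe sets did not overlap in Col-0 and 11.6% in CsUBC13-OE.

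The mean signal of AT4G11290 was 2035 ± 247 with Fe and 1590 ± 61.3 without in Col-0 (SD, n = 3), a log2 difference of -0.35 (SE 0.12). In CsUBC13-OE it was 2000.0 ± 240.2 and 1332 ± 119.8, a log2 difference of -0.58 (SE 0.12). In ubc13A it was 1117 ± 132 and 1290 ± 87.3, a log2 difference of 0.21 (SE 0.12). The Fe response of ubc13A thus stood above that of Col-0 by 0.56 on the log2 scale (SE 0.18).

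With Fe, the 3 ubc13A arrays of AT4G11290 lay below all 6 arrays of the other genotypes at that supply. Set against Col-0, ubc13A stood at a log2 difference of -0.86 with Fe (SE 0.12), a 1.81-fold lower level, and -0.78 (SE 0.14) without ubc13A replicate 3. Groups of ubc13A and Col-0 with Fe that do not overlap in this direction were found for 6.07% of all probe sets. Without Fe the log2 difference was -0.30 (SE 0.12), and the groups did not overlap either, as for 7.42% of all probe sets. CsUBC13-OE differed from Col-0 in AT4G11290 by -0.02 (SE 0.12) with Fe and by -0.26 (SE 0.12) without. The groups overlapped with Fe and not without Fe, where 4.18% of all probe sets did not overlap in that direction.

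The order of the means of AT4G11290 was Col-0 with Fe, CsUBC13-OE with Fe, Col-0 without Fe, CsUBC13-OE without Fe, ubc13A without Fe and ubc13A with Fe. The first 2 groups overlapped, as did the last 3, whose arrays lay from 1003.4 to 1468.7. Col-0 without Fe, at 1545.8 to 1660.3, overlapped with no neighbour.

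Both peroxidase genes were lower without Fe in Col-0 and in CsUBC13-OE, with no overlap between supplies. In ubc13A the supplies stood apart for AT3G49960 and overlapped for AT4G11290. The genotypes overlapped at each supply for AT3G49960, and with Fe the ubc13A arrays of AT4G11290 stood apart from those of the other genotypes. Over the 18 arrays the log2 levels of the 2 genes had a Pearson r of 0.50, and their deviations from the group means one of 0.56. Each pair of values shares an array, and these correlations are a description.

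The comparison with the rest of the family used a list of 73 Arabidopsis class III peroxidase genes. By the annotation used here 55 had a probe set of their own, the 2 genes above and 53 others. Removing Fe from Col-0 lowered 3 of the 53 (5.66%) and raised 0, where limma with Benjamini-Hochberg adjustment called 4.26% of all probe sets. By direction, 2.05% of all probe sets were called lower and 2.21% higher. The 3 were AT2G37130 at -1.30 on the log2 scale (SE 0.21, adjusted p = 0.00139), AT4G30170 at -1.10 (SE 0.14, adjusted p = 0.000186) and AT1G34510 at -0.91 (SE 0.24, adjusted p = 0.0477). Their groups did not overlap: AT2G37130 had mean signals of 2982 ± 737 with Fe and 1182 ± 105 without, AT4G30170 of 5192 ± 760 and 2402 ± 92.3, and AT1G34510 of 201.5 ± 14.4 and 102.6 ± 32.6 (SD, n = 3). The call of AT1G34510 ended with quantile normalization (adjusted p = 0.0882), with the replicate number as a block (adjusted p = 0.0707) and on leaving out any 1 of 11 of the 18 arrays. With that replicate block 5 of the 53 genes were called, 1 higher and 4 lower, and 1079 of all probe sets (970 in the main fit). When the dimmest 40% of probe sets were left out, only 35 of the 53 genes were tested. Of these 35, 9 were called, 3 higher and 6 lower, and 1229 of all probe sets kept were called. The balance of directions thus depended on the setting. AT5G39580, named after its values were seen, stood at 1.13 (SE 0.30, adjusted p = 0.0505). It was called higher under 6 of the 8 alternatives other than leaving out 1 array (adjusted p = 0.0163 with the replicate block). Without ubc13A replicate 3 with Fe 6 of the 53 were called, and 960 of all probe sets. Without replicate 1 or replicate 2 of CsUBC13-OE without Fe 5 were called, and 959 or 921 of all probe sets.

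In CsUBC13-OE, 4 of the 53 genes fell and 2 rose without Fe (11.3%, against 4.33% of all probe sets, 2.11% lower and 2.22% higher). AT2G37130 fell by 1.48 in log2 signal (SE 0.21, adjusted p = 0.000405), AT4G30170 by 1.22 and AT5G64100 by 0.85. AT5G58400 was called lower as well (-1.51), with all its signals at 58.6 or less, for which no detection call was at hand. AT1G49570 rose by 1.16 (SE 0.24, adjusted p = 0.0106), from 782 ± 238 to 1742 ± 411, and AT4G33420 rose by 0.49. The calls of AT5G58400 and AT4G33420 each ended without any 1 of 5 of the 6 CsUBC13-OE arrays, and that of AT1G49570 without replicate 1 of either supply. Fitted on the 6 arrays of CsUBC13-OE alone, 3 genes were called, and 3 were called without its replicate 1 without Fe. Of all probe sets 438 and 703 were then called, against 984 in the main fit.

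In ubc13A, 1 of the 53 genes fell and 3 rose without Fe (7.55%, against 3.72% of all probe sets, 1.63% lower and 2.09% higher). AT2G37130 fell by 1.29 (SE 0.21, adjusted p = 0.00183), and it was the 1 gene of the 53 called lower in all 3 genotypes. AT4G33420 rose by 0.60 (SE 0.12) and AT5G19890 by 0.54 (SE 0.11), while AT4G17690 (1.13) was called at signals of 56.4 or less, with overlapping groups. The call of AT5G19890 ended without replicate 2 or replicate 3 without Fe, and that of AT4G17690 without any 1 of 4 of the ubc13A arrays. AT4G30170, called in the other genotypes, stood at -0.30 in ubc13A without passing the test, from 4035 ± 383 to 3319 ± 715. Its difference in Fe response between ubc13A and Col-0, 0.80, did not pass the test either. Fitted on the ubc13A arrays alone, 2 genes were called, and 2 were called without its replicate 3 without Fe. Of all probe sets 419 and 625 were then called, against 847 in the main fit.

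Across the 3 genotypes 9 of the 53 genes were called in at least 1 Fe response (17%, against 6.66% of all probe sets) and 44 in none. The median log2 difference of the 53 was -0.09 in Col-0, -0.09 in CsUBC13-OE and -0.06 in ubc13A, where the median of all probe sets was -0.04 in each. In Col-0 31 of the 53 lay below 0 (58.5%, against 57.2% of all probe sets). AT3G49960 had the lowest log2 difference of the 55 measured genes in each genotype, and AT4G11290 was 14th from the lowest in Col-0, 11th in CsUBC13-OE and 40th in ubc13A. AT3G49960 was chosen with this fall in view, so its place is a description.

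**Figure D2:**
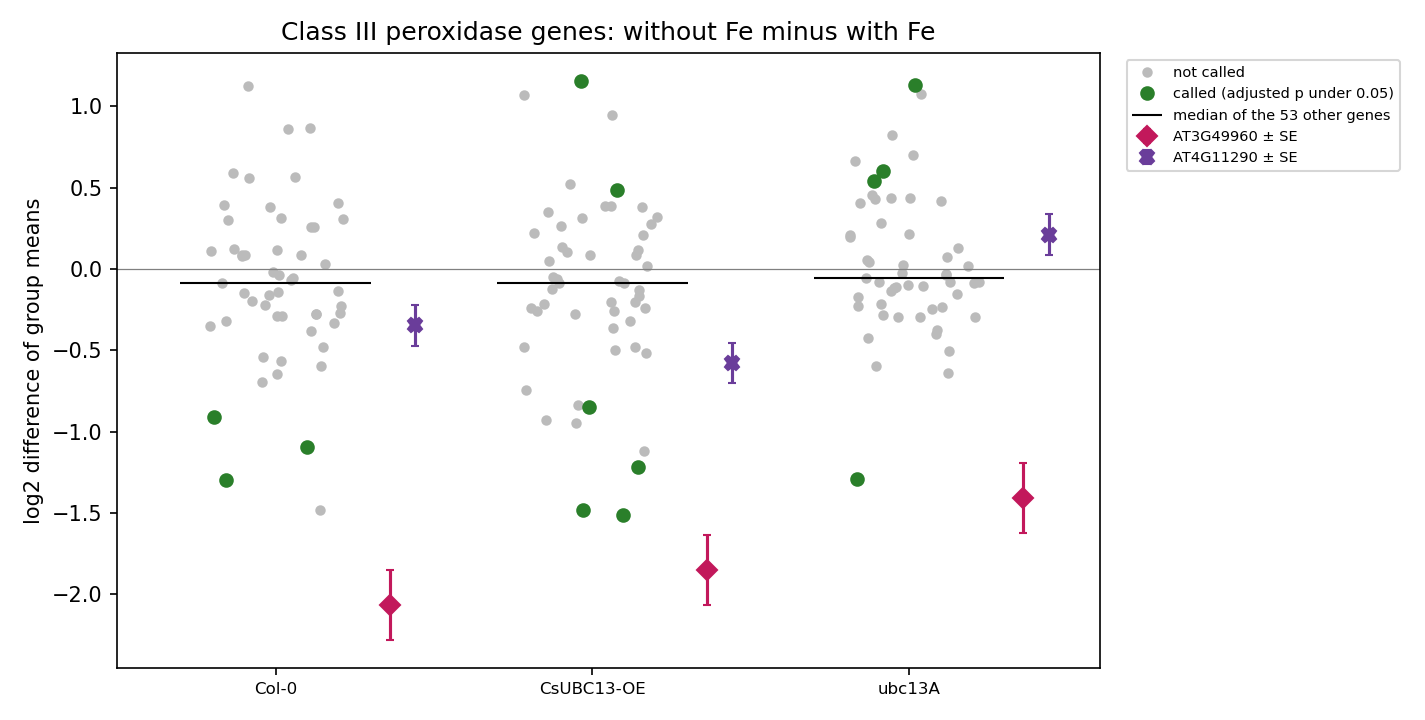
Log2 difference of group means, without Fe minus with Fe, for the class III peroxidase genes in each genotype. Small points are the 53 genes other than the 2 described, green where limma called them, black lines their medians, and the large markers are AT3G49960 and AT4G11290 with bars of ± 1 SE. AT3G49960 is the lowest point in each genotype (-2.07, -1.85 and -1.41), and AT4G11290 lies at -0.35, -0.58 and 0.21.

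Between genotypes none of the 53 genes passed limma's test. In the comparison of ubc13A with Col-0 with Fe, 0 of 53 were called, against 0.0132% of all probe sets, with 15 at an unadjusted p under 0.05 (28.3%, against 9.84% of all probe sets). Of the 53, 35 lay below 0 (66%, against 44% of all probe sets), with a median log2 difference of -0.13 against 0.03 for all probe sets. PRX52 stood at -1.12 (adjusted p = 0.377), at dim signals of 45.4, 2.1 and 2.6 in ubc13A and 38.5, 45.2 and 47.1 in Col-0, which overlap. AT5G64120 stood at -1.03 (adjusted p = 0.394), with 137.4 ± 3.81 in ubc13A and 318.1 ± 153 in Col-0, and AT5G06730 at -0.84 (SE 0.16, adjusted p = 0.127). AT5G06730 was the 1 family gene called when the dimmest 40% of probe sets were left out, where 32 of all probe sets were called, against 3 in the main fit. These 3 were named after their values were seen.

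Without Fe, 0 of the 53 genes were called between ubc13A and Col-0 (0.0484% of all probe sets), with 14 at an unadjusted p under 0.05 (26.4%, against 11.1% of all probe sets), and their median was -0.06. For CsUBC13-OE against Col-0, 0 were called with Fe and 0 without (0.0132% of all probe sets each). With Fe 3 were at an unadjusted p under 0.05 (5.66%, against 2.78% of all probe sets), and without Fe 7 (13.2%, against 3.48%). The difference in Fe response from Col-0 was called for 0 of the 53 in CsUBC13-OE (0.0044% of all probe sets) and for 0 in ubc13A (0% of all probe sets). At an unadjusted p under 0.05 there was 1 in CsUBC13-OE (1.89%, against 2.66% of all probe sets). In ubc13A there were 3 (5.66%, against 5.51%). All these comparisons share the Col-0 arrays.

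**Figure D3:**
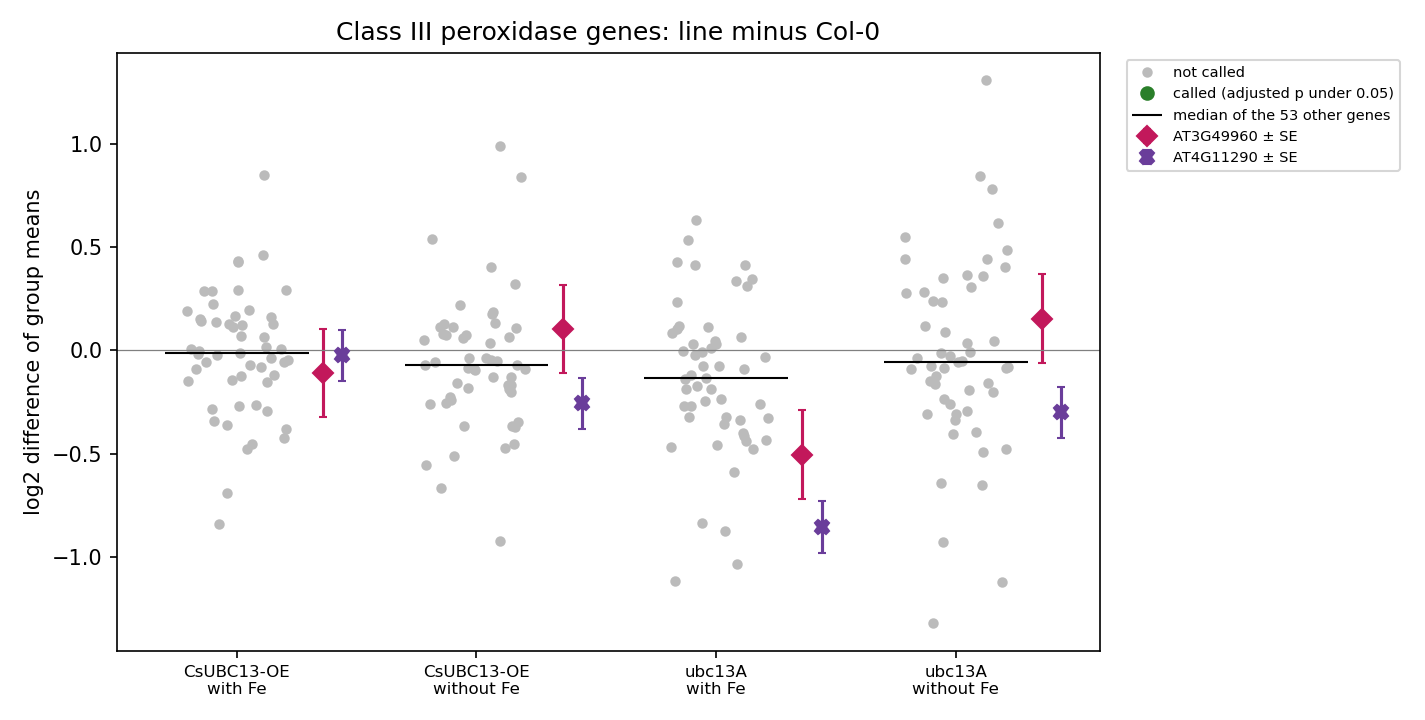
Log2 difference of each line from Col-0 for the class III peroxidase genes, with and without Fe. Small points are the 53 genes other than the 2 described, of which none was called, black lines are their medians, and the large markers are AT3G49960 and AT4G11290 with bars of ± 1 SE. AT4G11290 lies at -0.86 in ubc13A with Fe and at -0.30 without, against medians of -0.13 and -0.06.

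Related gene groups were measured only in part, through genes with a probe set of their own by the annotation used here. Of all probe sets 4.26% were called in the Fe response of Col-0, 4.33% in CsUBC13-OE and 3.72% in ubc13A. At these shares a lack of calls in so small a group says little about it. Of 10 NADPH oxidases, the plasma membrane enzymes whose superoxide gives rise to hydrogen peroxide, 3 were measured. AT4G25090 of this list rose without Fe in all 3 genotypes, by 0.75 in Col-0 (SE 0.16, adjusted p = 0.00964), 0.82 in CsUBC13-OE and 1.01 in ubc13A, and the other 2 were not called. The call in Col-0 ended without replicate 2 with Fe (adjusted p = 0.054) or replicate 3 without Fe (adjusted p = 0.061). In Col-0 its mean signal was 307.8 ± 30.2 with Fe and 531.6 ± 92.4 without.

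Of 11 haem enzymes that remove hydrogen peroxide, ascorbate peroxidases and catalases, 2 were measured. SAPX, the stromal ascorbate peroxidase, fell in all 3 genotypes, by 2.14 in Col-0 (SE 0.26, adjusted p = 7.11e-05), 2.04 in CsUBC13-OE and 1.29 in ubc13A. SAPX is also among the 6 genes most like AT3G49960 over these arrays, and this list was chosen with earlier results of these data known. Its p-value is therefore no independent support. TAPX, the thylakoid ascorbate peroxidase, was not called. Of 7 superoxide dismutases 0 had a probe set of their own by the annotation used here.

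Of 11 extensins and leucine-rich repeat extensins, wall proteins that peroxidases can cross-link, 3 were measured. HRGP1 fell in Col-0 by 0.81 (SE 0.20, adjusted p = 0.0265), from 2255 ± 49.9 to 1285 ± 134, and was not called in the other genotypes. Its probe set carries the suffix that marks possible cross-hybridisation, and the call ended on leaving out any 1 of the 6 Col-0 arrays. Of 20 genes of monolignol synthesis and laccases 1 was measured: HCT, which acts in the synthesis of lignin precursors, rose by 1.36 in Col-0 (SE 0.15), 1.43 in CsUBC13-OE and 1.27 in ubc13A. Of the 3 root hair markers 0 were called in any Fe response. The shares of all probe sets called were 4.26% in Col-0, 4.33% in CsUBC13-OE and 3.72% in ubc13A, so 0 of 3 says little. XTH26, a xyloglucan enzyme of root hairs, stood at -1.12 in Col-0 (adjusted p = 0.104). The green tissue markers RCA (-0.94) and LHCB4.1 (-0.89) fell in CsUBC13-OE, and none of the 4 was called in Col-0 or ubc13A.

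The genes whose log2 levels most resembled those of AT3G49960 over the 18 arrays were ranked among 13285 others. The highest Pearson r belonged to SIR, which encodes sulfite reductase (0.968), followed by AT3G57020 (0.957), AT3G20510 (0.957), AT5G40510 (0.954), AT5G22390 (0.943) and SAPX (0.943). They were picked for sharing the pattern of AT3G49960, so their values are a description. SIR had a log2 difference of -1.19 in Col-0, -1.27 in CsUBC13-OE and -0.59 in ubc13A, and its arrays in Col-0 read 3745.4, 3574.0 and 3851.9 with Fe and 1723.1, 1669.4 and 1484.4 without. The lowest r belonged to AT3G56360 (-0.977), AT3G58060 (-0.972) and CYP71B5 (-0.970), which stood higher without Fe. Within the family the closest were AT5G64100 (0.928), AT2G37130 (0.913) and AT4G30170 (0.906). These values follow the difference between supplies that all of these genes share, and are a description over arrays in 6 groups.

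The genes most like AT4G11290 had lower values of r. They were AT3G56290 (0.875), AT3G22570 (0.871), AT1G17860 (0.860), the auxin response gene IAA31 (0.858), the osmotin gene OSM34 (0.843) and AT3G22850 (0.822). They were picked for sharing the pattern of AT4G11290, and their values in ubc13A against Col-0 with Fe, from -0.28 for AT3G22850 to -1.01 for AT3G56290, restate that choice. The Fe response of IAA31, which is part of the same choice, stood at -0.37 in Col-0, -0.45 in CsUBC13-OE and 0.46 in ubc13A. Its signals were 15.7 to 71.2. OSM34 differed from Col-0 in ubc13A by -0.58 with Fe and -0.66 without. The lowest r belonged to AT1G70100 (-0.819), AT1G50950 (-0.818) and AT1G32360 (-0.810). Within the family the closest were AT5G64120 (0.780) and AT1G30870 (0.767), and AT1G30870 stood at -0.47 in ubc13A against Col-0 with Fe without passing the test.

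**Figure D4:**
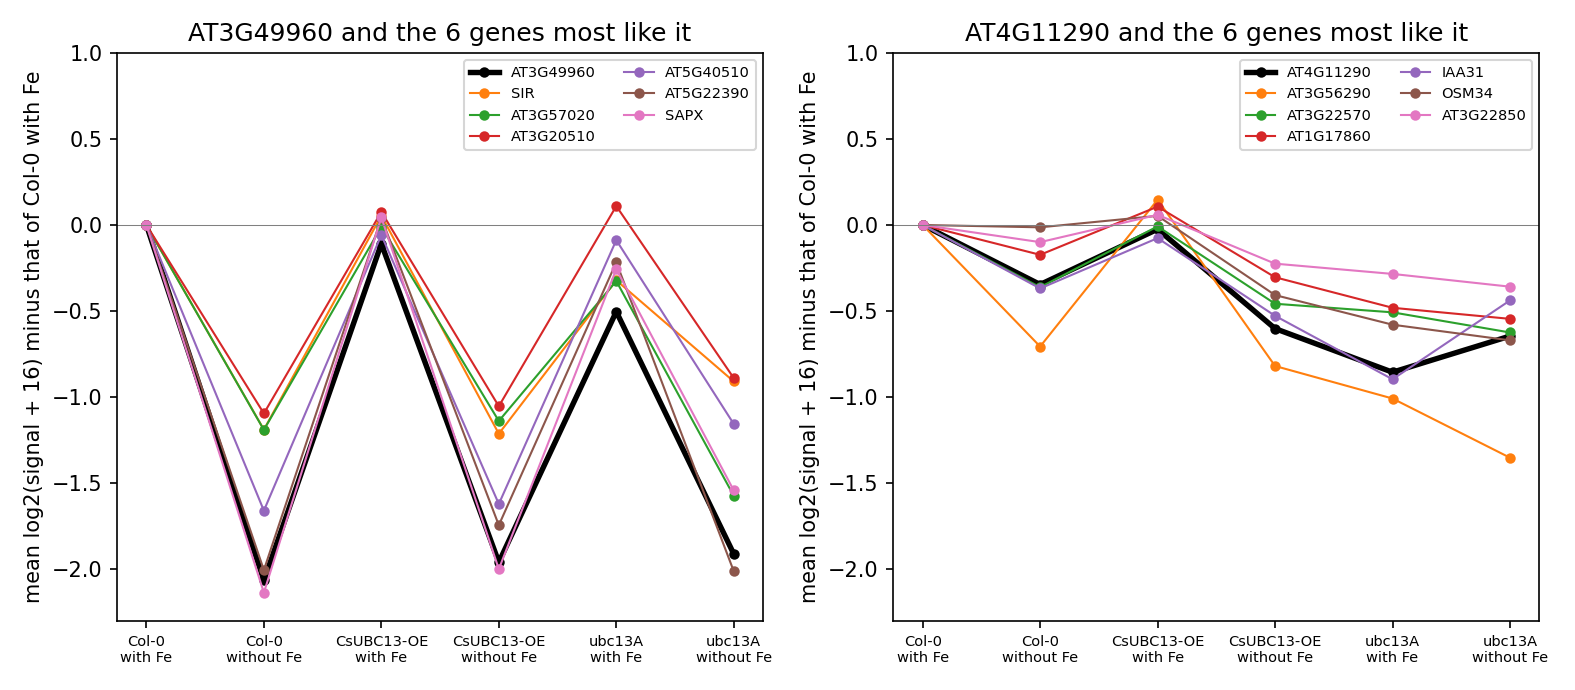
Group means of log2(signal + 16), each minus the mean of Col-0 with Fe, for AT3G49960 (left) and AT4G11290 (right) in black and the 6 genes with the highest Pearson r to each in colour. Lines only join the group means. AT3G49960 and its 6 genes drop in each group without Fe, by -2.07 for AT3G49960 in Col-0, while AT4G11290 and its 6 genes lie below Col-0 with Fe in ubc13A, by -0.86 for AT4G11290.

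On the chromosome 1 neighbour of each gene had a probe set of its own by the annotation used here. The other (AT3G49970 and ACS6) did not. AT3G49950, next to AT3G49960 by the RefSeq gene table, stood at 0.19 in the Fe response of Col-0 (adjusted p = 0.64 by limma). It stood at -0.06 in CsUBC13-OE and -0.08 in ubc13A. AT4G11300, next to AT4G11290, stood at -0.06 in Col-0 (adjusted p = 0.935), -0.11 in CsUBC13-OE and -0.17 in ubc13A. The neighbours were chosen by position, after the values of the 2 peroxidase genes were known.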

How the data were processed

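Root RNA was measured on 18 single-colour Affymetrix arrays, 3 in each of 6 groups. The authors deposited a linear intensity for each probe set of each array, with array medians from 189.7 to 210.95; the sources used here do not give how probes were summarised, and there were no detection calls to use. Of 22810 probe sets, 64 controls were set aside. Genes were named from the platform annotation and the RefSeq gene table of TAIR10.1, which matched 13436 probe sets of 1 gene; for a gene with several, the brightest was used. Values were taken as log2(signal + 16), and 6 group means were fitted over all arrays and probe sets with limma 3.58.1 in R 4.3.3, with 12 residual degrees of freedom. P-values of the 9 contrasts were adjusted separately (Benjamini-Hochberg) over 22746 probe sets, and a gene was called at an adjusted p under 0.05. Folds on this scale understate the change of dim genes. The fit was tested on simulated data. Figures used Python 3.11.15 and matplotlib 3.10.9.

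The genes and lists were chosen with earlier results of these data known. The family list was written from general knowledge of the Arabidopsis class III peroxidases. Named family genes were those called, up to 6 per direction in an Fe response; named genes of other lists were up to 4 called, and the 6 highest and 3 lowest Pearson r were named per gene. Same-numbered arrays of Col-0 with and without Fe deviated together from their group means (r = 0.261, 0.112 and 0.153). So did those without Fe of Col-0 and CsUBC13-OE (0.297, 0.201 and 0.107). Elsewhere r ran from -0.0771 (Col-0 and ubc13A without Fe) to 0.287 (Col-0 and CsUBC13-OE with Fe). The labels state no pairing, and the main fit used none, so its SE and p-values ignore it. With a replicate block as an alternative, limma no longer called AT5G58400 in CsUBC13-OE (adjusted p = 0.0535) or AT4G17690 in ubc13A (adjusted p = 0.0528). Replicates are biological per the labels.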

Additional observations from a re-analysis of the deposited data

Results flagged for a closer look

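The fitted Fe response of AT4G11290 was negative in Col-0 and CsUBC13-OE, and small and positive in ubc13A (0.21). In ubc13A the groups overlapped, at 1003.4 to 1261.9 with Fe and 1216.8 to 1386.8 without, so a rise there is not clear. In Col-0 and CsUBC13-OE each array without Fe lay below the mean of the arrays with Fe, and in ubc13A each lay above it, so that the log2 response of ubc13A exceeded that of Col-0 by 0.56 and that of CsUBC13-OE by 0.79. This difference was not tested, since the gene was chosen with these levels known. In the same way AT4G17690 differed between ubc13A and CsUBC13-OE by 1.61 and AT5G58400 by 2.34, at signals of 58.6 or less, for which no detection call was at hand, and these differences were not tested.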

How the results depend on the processing

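The log2 Fe responses of both genes kept their direction under quantile normalization, centring on the array median, pseudocounts of 1 and 64, leaving out the dimmest 40% of probe sets, a replicate block, array weights, fits of the compared groups alone and leaving out any 1 array. Leaving out 1 array gave -2.20 to -1.98 for AT3G49960 in Col-0, -1.89 to -1.78 in CsUBC13-OE and -1.74 to -1.23 in ubc13A, and for AT4G11290 -0.42 to -0.25, -0.65 to -0.48 and 0.14 to 0.30. With a pseudocount of 64 AT3G49960 stood at -1.74 in CsUBC13-OE, just outside the range of -1.89 to -1.78 from leaving out 1 array. Counts of called family genes were less stable. In Col-0 they were 5 after centring on the median (3 higher and 2 lower), 5 with the replicate block and 8 with array weights. They were 9 with a pseudocount of 64 and without the dimmest 40%, where 35 of the 53 were tested. The calls among all probe sets in Col-0 moved as well. They were 970 in the main fit, 961 after centring, 1079 with the block and 1339 with array weights. With a pseudocount of 64 they were 1154, and without the dimmest 40% they were 1229, with fewer tested. On the compared arrays alone 3 family genes were called in CsUBC13-OE and 2 in ubc13A, where 438 and 419 of all probe sets were called. For ubc13A against Col-0 with Fe, 1 family gene was called without the dimmest 40%, where 32 of all probe sets were called. The family count ran from 2 to 6 in Col-0, 3 to 7 in CsUBC13-OE and 2 to 6 in ubc13A when 1 array was left out. The calls among all probe sets then ran from 657 to 1029, 689 to 997 and 589 to 982. The replicate block moved no other family count by over 1.5 times. Of 648 repeats of 25 single gene calls, all kept their direction and 54 no longer passed the test. Centring on the median raised the share of higher calls among all probe sets from 51.9% to 63.2% in Col-0 and from 56.2% to 68.6% in ubc13A. The causes of these changes were not tested. Without detection calls, dim signals have no stated limit of detection.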
